A study of Homo sapiens with 10 samples.

Results

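Lipid droplet coat proteins and the enzymes of lipolysis were examined in HepG2 cells, a human hepatoma line, under endoplasmic reticulum (ER) stress. The group was chosen by name, as the rows of the count table for PLIN2, PLIN3, PLIN4, PLIN5, CIDEB, CIDEC, PNPLA2, PNPLA3, HILPDA and ABHD5, which are 10 of its 32738 genes. All 10 passed the filter on low counts. Cells received 2 µg/ml tunicamycin, an inhibitor of N-linked glycosylation, or growth medium without it for 17 h, with 5 libraries per condition from experiments done on separate days. The labels name no vehicle for the control and no fatty acid supplement in either condition. The series text calls the control mock treated, whereas the treatment protocol names regular growth medium. Whether the control received the solvent of tunicamycin is therefore not known. The cells were cultured in medium with fetal bovine serum, and HepG2 is a single line. Transcripts were counted from their 3′ ends, where a molecule gives about 1 fragment whatever its length, so that levels of different genes are compared below without division by length.

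A lipid droplet is a core of triglyceride and sterol ester under a single phospholipid layer, to which perilipins and CIDE proteins bind. The perilipins limit the access of lipases to the core, and CIDE proteins enlarge droplets by passing lipid between them. Lipolysis begins with adipose triglyceride lipase, the product of PNPLA2, which ABHD5 activates and HILPDA inhibits. In hepatocytes the droplet is the store from which lipid is drawn for oxidation and for lipoprotein secretion.

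Library totals were between 2234682 and 5029864 counts, and the 2 smallest belonged to tunicamycin replicates 5 and 4. ER chaperone gene HSPA5 had 8445 ± 559 normalized counts in control and 66202 ± 4410.5 in tunicamycin cells (SD, n = 5 each), without overlap. All 8 hepatocyte markers examined were detected, although 5 of them, APOA1 and TTR among them, were lower with tunicamycin (adjusted p under 0.05, edgeR). This is 62.5%, against 16.6% of all genes tested that were lower. ALB, SERPINA1 and AFP were not called, with log2 fold changes of 0.04, 0.08 and -0.16. Of the 5 adipocyte markers, which include the adipocyte droplet genes PLIN1 and CIDEA, 4 had no count in any library, and the whole list reached at most 0.462 CPM, counts scaled to a common library size. Of the 3 leukocyte markers, PTPRC had no count in any library. LYZ, by contrast, had 308 ± 46.1 CPM in control and 388 ± 74.3 CPM in tunicamycin cells, and CD68 had 6.37 ± 1.68 and 3.57 ± 1.51 CPM (SD, n = 5 each). In bulk RNA, fewer cells that express a gene and less of its RNA per cell cannot be told apart. Normalized counts are counts divided by the library size after scaling by the trimmed mean of M-values (TMM) and multiplied by its mean. All tests below are quasi-likelihood F-tests of edgeR that compare the conditions, with Benjamini-Hochberg adjustment over the 12733 genes tested.

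PNPLA3 and CIDEC differed between the conditions, and both were lower with tunicamycin. These are 2 of the 10 genes that passed edgeR's test at an adjusted p under 0.05, or 20%, against 34.2% of all genes tested. In the single directions, 2 of 10 were lower, against 16.6% of all genes, and 0 of 10 were higher, against 17.6%. At an unadjusted p under 0.05 there were 4 of 10, against 43.5% of all genes, with PLIN3 on the lower and PNPLA2 on the higher side in addition. DESeq2 called PNPLA3 and CIDEC too and no other. PNPLA3 and CIDEC were also the 2 genes whose normalized counts did not overlap between the groups, a property of 23.5% of all genes tested. The median log2 fold change of the 10 genes was 0.01, with 5 positive and 5 negative values, and that of all genes was -0.0033. With the replicate number as a block, which stands for the shared day of an experiment, 4 of the 10 genes were called, against 37.8% of all genes. With every library thinned to the smallest total PNPLA3 alone was called, against 30.9% of all genes. The shares of the 10 genes were thus near or below those of all genes under these settings.

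**Figure D1:**
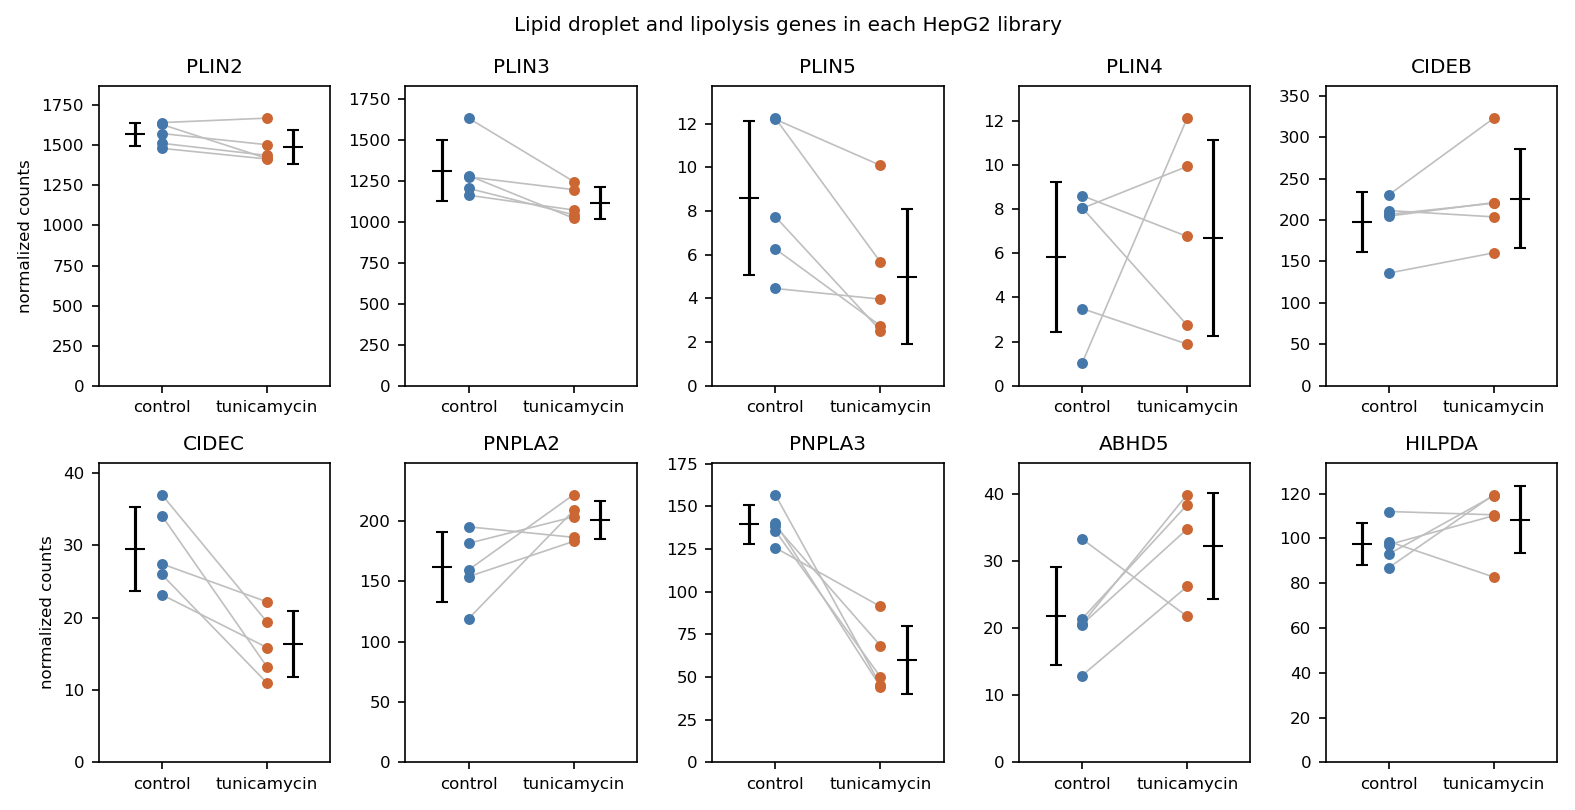
Normalized counts (vertical axis, from 0) of the 10 genes in each control (blue) and tunicamycin (orange) library, with grey lines joining libraries of the same replicate number and black bars giving the mean ± SD of 5 libraries. The groups are separate for PNPLA3 and CIDEC and overlap for the other 8 genes.

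PLIN2 and PLIN3, the perilipins found on the droplets of most cell types, were by far the most abundant of the 10 genes. In control cells PLIN2 had a level of 359 ± 16.2 CPM and PLIN3 of 300.8 ± 42.7 CPM (SD, n = 5), followed by CIDEB at 45.3 ± 8.25 CPM. PLIN2 exceeded PLIN3 in 4 of 5 control libraries, with overlapping ranges, and in 5 of 5 tunicamycin libraries, where the ranges were separate. By contrast, PLIN5 and PLIN4 were the lowest of the 10, at 1.97 ± 0.81 and 1.34 ± 0.78 CPM in control cells, and did not differ from each other beyond their spread.

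In control replicates 1 to 5, PLIN2, the coat protein whose stability follows the amount of stored lipid, had 1573, 1630.0, 1641, 1512 and 1481 normalized counts. In tunicamycin replicates 1 to 5 there were 1503, 1418, 1669, 1437 and 1414 in replicates 1 to 5. The groups overlapped, and replicate 3 was the highest in both. The log2 fold change was -0.07 (standard error 0.08, adjusted p = 0.512, edgeR), and its 95% interval reached from -0.24 to 0.10, which is 0.845-fold to 1.07-fold. This is the narrowest interval among the 10 genes. PLIN2 was lower in 4 of 5 replicate pairs, by at most 0.20 on the log2 scale, and did not pass the test under any of 19 other settings.

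The promoter window of PLIN2 is shown because this is the most abundant gene of the group and the one that was measured most precisely. It lies on chromosome 9 of GRCh38 on the minus strand (chr9:19127443-19127742, 250 bases before to 50 after the RefSeq start site) and is 76.7% G and C. Capitals mark the 5-base cores of the hypoxia element, ACGTG or GCGTG, on either strand.
PLIN2: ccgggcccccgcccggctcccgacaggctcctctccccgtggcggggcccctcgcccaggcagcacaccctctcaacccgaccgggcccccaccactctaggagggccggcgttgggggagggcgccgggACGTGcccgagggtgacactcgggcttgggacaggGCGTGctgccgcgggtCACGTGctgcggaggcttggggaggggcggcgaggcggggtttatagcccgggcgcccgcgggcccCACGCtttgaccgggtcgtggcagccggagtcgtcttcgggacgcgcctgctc
The core occurs 5 times, where 2 of the matches are the 2 strands of CACGTG. At least 1 core is present in 48.4% of the 35116 RefSeq promoter windows. The number of cores per window was not counted over all windows. No match was found for the ER stress element ERSE, the UPR element TGACGTGG, the C/EBP-ATF composite site TTGCATCA, the AP-1 site, the PPAR element or the sterol element TCACCCCAC in this window.

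PLIN3, a perilipin that moves from the cytosol to nascent droplets, lies on the minus strand of chromosome 19 of GRCh38 (chr19:4838341-4867694). It had 1635, 1285, 1276, 1165 and 1206 normalized counts in control replicates 1 to 5. The tunicamycin libraries had 1248, 1024, 1199, 1074 and 1045. Control replicate 1 stood above the other 4 control libraries, and the tunicamycin values lay at the lower edge of the control range, with 3 of 5 below all control libraries. PLIN3 was lower in 5 of 5 replicate pairs, by 0.09 to 0.39 on the log2 scale. The log2 fold change of -0.23 (standard error 0.10) had an adjusted p of 0.0804 in edgeR's test, and in the fit with the replicate block the value was -0.23 with an adjusted p of 0.0279. The 2 libraries of replicate 1 pulled this value in opposite directions. Without control replicate 1 it was -0.14 with an adjusted p of 0.226, without tunicamycin replicate 1 it was -0.27 with an adjusted p of 0.0438, and with library size as the only scaling -0.31 with 0.0333. On the opposite strand an exon of a long noncoding RNA gene (ENSG00000267484) covers 435 of the last 500 bases of PLIN3. That gene had 0 counts in every library. Whether strand was used, and how reads that match both genes were counted, is not given in the sources used here. The level of PLIN3 and the perilipin shares below carry this limit.

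Perilipin transcripts were compared with each other within a library, which does not depend on library scaling. PLIN2 took 48.8%, 55.7%, 55.9%, 56.2% and 54.8% of the perilipin counts in control replicates 1 to 5. In tunicamycin replicates 1 to 5 it took 54.5%, 57.7%, 58.0%, 57.1% and 57.0%. The share was higher with tunicamycin in every replicate pair, but the ranges overlapped, and replicate 1 was the lowest in both conditions. PLIN4 and PLIN5 together stayed under 1% of perilipin counts in each library.

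PLIN4 and PLIN5 are neighbours on the minus strand of chromosome 19 (chr19:4502192-4518486 and chr19:4522531-4535224). PLIN5, the perilipin that ties droplets to mitochondria in oxidative tissues, had between 4.46 and 12.2 normalized counts in control cells, with a median of 7.75. With tunicamycin it had between 2.53 and 10.1, with a median of 3.97. PLIN5 was lower in 5 of 5 pairs, and 3 tunicamycin libraries were below all control libraries. With 2 to 14 counts per library the log2 fold change of -0.88 (standard error 0.47) carried a 95% interval from -1.86 to 0.09 and an adjusted p of 0.154 in edgeR's test. The estimate was close to that of CIDEC (-0.87), which was called with a smaller standard error of 0.25. Whether a difference of this size could be detected for PLIN5 at this depth was not tested. PLIN4, a perilipin of adipocytes and muscle, had 1 to 10 counts per library, and its log2 fold change of 0.10 (standard error 0.55) turned negative when any one of 4 libraries was left out, control replicate 3 or 5 or tunicamycin replicate 2 or 5, with values down to -0.15, and was 1.10 after thinning. The direction of PLIN4 is thus not set by these data. Among all genes tested with fewer than 10 normalized counts, the median standard error was 0.579.

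CIDEC, which enlarges droplets at their contact sites and is most abundant in fat and in steatotic liver, was lower with tunicamycin. In control replicates 1 to 5 it had 37.0, 23.2, 34.1, 26.0 and 27.4 normalized counts. With tunicamycin the values were 19.4, 15.9, 13.2, 11.0 and 22.2. The highest tunicamycin value, in replicate 5, lay just under the lowest control value, in replicate 2. The mean fell from 29.5 ± 5.79 to 16.3 ± 4.54 normalized counts (mean ± SD of 5 libraries), which is 55.3% of control and a difference of -0.87 on the log2 scale (standard error 0.25, adjusted p = 0.00991, edgeR). It was lower in 5 of 5 replicate pairs, by 0.30 to 1.33 on the log2 scale. The call was kept with each library left out in turn, with log2 fold changes from -0.97 to -0.77, and was lost after thinning to the smallest library (-0.61, adjusted p = 0.181), where CIDEC rests on still fewer than its 8 to 43 counts.

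RefSeq places 2 start sites of CIDEC on the minus strand of chromosome 3 of GRCh38, and both promoter windows are shown because CIDEC is the called gene for which a window was at hand. The upstream window is chr3:9880204-9880503 and the downstream window is chr3:9878763-9879062. Capitals mark an AP-1 site, TGACTCA or TGAGTCA on either strand.
CIDEC upstream start: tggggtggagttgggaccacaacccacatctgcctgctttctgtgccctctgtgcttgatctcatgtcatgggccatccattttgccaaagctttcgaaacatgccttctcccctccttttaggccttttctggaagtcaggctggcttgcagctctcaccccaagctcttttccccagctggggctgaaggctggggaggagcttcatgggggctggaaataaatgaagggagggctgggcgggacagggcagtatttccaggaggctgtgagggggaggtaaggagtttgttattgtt
CIDEC downstream start: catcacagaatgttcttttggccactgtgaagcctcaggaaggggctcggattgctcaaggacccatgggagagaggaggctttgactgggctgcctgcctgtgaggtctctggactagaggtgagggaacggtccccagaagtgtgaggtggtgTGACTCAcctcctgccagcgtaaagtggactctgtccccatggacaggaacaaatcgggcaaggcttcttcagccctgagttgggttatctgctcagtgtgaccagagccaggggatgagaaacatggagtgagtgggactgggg
The upstream window held none of the motifs searched, and the downstream window held TGACTCA at bases 156 to 162 of 300. An AP-1 site was present in 4.95% of all promoter windows. Over the 12 windows of 8 members, the AP-1 site occurred in 1 other window, that of the downstream start of CIDEB, and the C/EBP-ATF composite site in 1, that of PLIN4, against 0.866% of all windows. The sterol element occurred in 1, that of PNPLA2, against 0.43%, and ERSE, the UPR element and the PPAR element in none, against 0.0769%, 0.729% and 0.0228% of all windows. At least 1 core of the hypoxia element was present in 6 of the 12, against 48.4% of all windows. PNPLA3 and HILPDA had no window in the table used. A match is a string of letters in the reference sequence, and binding was not measured in these libraries.

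CIDEB, the CIDE protein of hepatocytes, which acts on droplets and on the lipid loading of lipoproteins, was about as abundant as the lipases. In control replicates 1 to 5 it had 136, 207, 205, 230.3 and 211 normalized counts. Under tunicamycin its values were 160.5, 220.3, 221, 323 and 204. Replicate 1 was the lowest and replicate 4 the highest in both conditions, and the groups overlapped. Its log2 fold change was 0.18 (standard error 0.16, adjusted p = 0.407, edgeR), with a 95% interval from -0.15 to 0.52. The value was 0.03 without tunicamycin replicate 4, 0.07 without control replicate 1 and 0.29 without tunicamycin replicate 1, and was not called in any of these. All 1225 bases of the main CIDEB transcript are covered by exons of NOP9, a gene on the opposite strand that was itself lower with tunicamycin (log2 fold change -0.68, adjusted p = 0.000979), so that reads of the 2 genes could be mixed unless strand was used in counting. The log2 ratio of CIDEB to CIDEC was between 1.87 and 3.13 in control and between 3.02 and 4.79 in tunicamycin libraries, higher in 5 of 5 pairs with ranges that overlapped.

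PNPLA3, a patatin-like lipase and acyltransferase of hepatocyte droplets whose transcription follows SREBP and carbohydrate-responsive factors, changed most among the 10 genes. It lies on the plus strand of chromosome 22 of GRCh38 (chr22:43923792-43964488). In control replicates 1 to 5 it had 139, 126, 136, 157 and 140.3 normalized counts. With tunicamycin it had 68.4, 91.3, 50.1, 45.3 and 44.4. Every tunicamycin library was below every control library. The mean fell from 139 ± 11.2 to 59.9 ± 20.05 normalized counts (mean ± SD of 5 libraries), or to 42.97% of control and a difference of -1.18 on the log2 scale (standard error 0.17, adjusted p = 2.64e-05, edgeR). Of all genes tested, 3.36% had a lower log2 fold change.

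The size of the PNPLA3 decrease varied with the replicate. Within pairs the log2 ratio was -1.01, -0.46, -1.43, -1.78 and -1.65 for replicates 1 to 5, and the coefficient of variation was 33.5% over the tunicamycin libraries against 8.06% over the control libraries. The log2 fold change was -0.93 (adjusted p = 0.00282, edgeR) without replicates 4 and 5 of both conditions, which include the 2 smallest libraries. Tunicamycin replicate 4, with the largest decrease, also had the highest share of mitochondrial counts, 28.8% against 18.3% to 24.6% in the other tunicamycin and 22.7% to 25.2% in the control libraries, and the part of this in the result was not tested beyond leaving the library out (-1.09) and leaving out mitochondrial genes (-1.18). PNPLA3 kept its call under all 19 other settings of filter, scaling, tool, block and libraries, with log2 fold changes from -1.38 to -1.09. Exons of SAMM50 on the same strand share 148 bases with exons of PNPLA3, but 0 of them lie in its main transcript.

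PNPLA2, the lipase of the first step of triglyceride breakdown, had 182, 195, 154, 119 and 159.6 normalized counts in control replicates 1 to 5. Tunicamycin replicates 1 to 5 had 204, 187, 183, 209 and 222. The tunicamycin values lay at the upper edge of the control range, with 3 of 5 above every control library. PNPLA2 was higher in 4 of 5 pairs, with replicate 2 the exception. The log2 fold change was 0.30 (standard error 0.13, adjusted p = 0.0686, edgeR), and in the fit with the replicate block it was 0.31 with an adjusted p of 0.0442, whereas DESeq2 with the block gave 0.32 with 0.105. Without control replicate 1 the adjusted p was 0.0439 and without control replicate 2 it was 0.0343. On the other hand, without replicates 4 and 5 of both conditions the log2 fold change was 0.12 with an adjusted p of 0.586, so that the estimate rested largely on those pairs.

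ABHD5, the coactivator that PNPLA2 needs for full activity, had 12.9, 20.5, 33.2, 20.6 and 21.3 normalized counts in control replicates 1 to 5. The values under tunicamycin were 26.2, 34.7, 21.7, 39.8 and 38.3. It was higher in 4 of 5 pairs, by 0.75 to 0.99 on the log2 scale, and lower in replicate 3, by 0.60. The log2 fold change of 0.53 (standard error 0.26) had an adjusted p of 0.126 in edgeR's test and a 95% interval from -0.02 to 1.07. ABHD5 passed the test under 1 of 19 other settings, that without control replicate 3, the highest control library. There the log2 fold change was 0.75 with an adjusted p of 0.0404 in edgeR's test. Without replicates 4 and 5 of both conditions it was 0.31 with an adjusted p of 0.556.

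HILPDA, a small hypoxia-inducible protein that inhibits PNPLA2, had 93.0, 97.2, 112, 86.9 and 98.6 normalized counts in control replicates 1 to 5. With tunicamycin it had 119, 110.2, 111, 119.5 and 82.7. Tunicamycin replicate 5, the smallest library, was the lowest of all 10, whereas 2 tunicamycin libraries were above every control library. For HILPDA the log2 fold change was 0.17 (standard error 0.13, adjusted p = 0.342, edgeR), with a 95% interval from -0.10 to 0.44, so that a 2-fold change lies outside the interval.

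**Figure D2:**
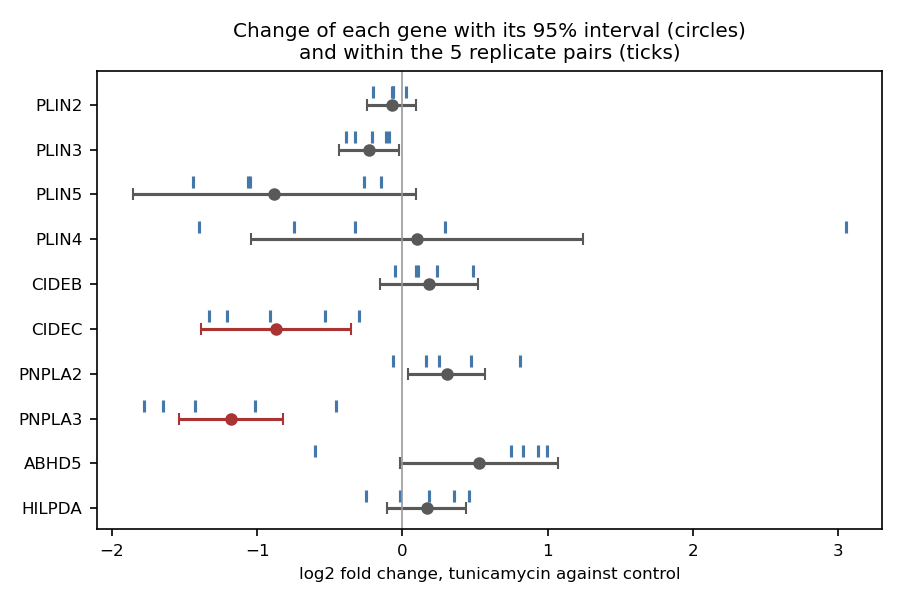
Log2 fold change of each gene between tunicamycin and control (circles, with 95% intervals from edgeR's fit, red where the adjusted p was under 0.05) and the log2 ratio within each of the 5 replicate pairs (blue ticks, with 0.5 added to normalized counts). The intervals of PNPLA3 and CIDEC lie wholly below 0 and are called, those of PLIN3 and PNPLA2 miss 0 but are not called after adjustment, and that of PLIN4 reaches from -1.04 to 1.24.

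The ratios between lipolysis genes within a library are independent of scaling. The log2 ratio of PNPLA2 to PNPLA3 counts was 0.39, 0.63, 0.18, -0.39 and 0.19 in control replicates 1 to 5. In tunicamycin replicates 1 to 5 it was 1.57, 1.03, 1.86, 2.19 and 2.30. The 2 lipases were thus nearly equal in control cells, and with tunicamycin PNPLA2 exceeded PNPLA3 in every library, without overlap between the conditions and with a mean difference of 1.59. By contrast, the ratio of the activator ABHD5 to PNPLA2 overlapped between conditions, with a mean log2 ratio of -2.91 ± 0.61 in control and -2.65 ± 0.32 in tunicamycin libraries (SD, n = 5 each). The ratio of the inhibitor HILPDA to PNPLA2 overlapped too, at -0.71 ± 0.26 and -0.89 ± 0.29. In the order of levels, PNPLA3 was in place 5 in control cells, with 31.9 ± 2.57 CPM and a range apart from that of HILPDA at 22.3 ± 2.12 CPM, and stood below HILPDA with tunicamycin, at 13.7 ± 4.59 against 24.8 ± 3.44 CPM, with ranges that overlapped.

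Other proteins of the droplet surface and of droplet formation changed about as often as all genes. Of 21 such genes, 16 were tested, and 2 were higher and 3 lower by edgeR's test (adjusted p under 0.05), which is 31.25% against 34.2% of all genes, with a median log2 fold change of -0.10. METTL7B, a methyltransferase-like protein of droplets, fell from 166 ± 13.1 to 88.4 ± 8.58 normalized counts (mean ± SD of 5 libraries). LPCAT1, which remodels phosphatidylcholine of the droplet surface, fell from 154 ± 21.7 to 74.9 ± 14.9. VPS13C, a lipid transfer protein of contact sites, was lower with a log2 fold change of -0.40. RAB18, a GTPase that joins droplets to the ER, rose from 172 ± 25.7 to 270.9 ± 15.8 normalized counts. FAF2, which recruits the segregase of ER-associated degradation to the ER and to droplets, was higher by 0.36 on the log2 scale (adjusted p = 0.0377), a call that was lost under 8 of 19 settings. FITM2, ACSL3 and HSD17B11, which serve droplet budding, fatty acid activation and steroid metabolism, had log2 fold changes of -0.29, -0.11 and -0.02 and did not pass the test, which FITM2 did with the replicate block (adjusted p = 0.0497) but not in DESeq2 with the block (0.14). PLIN1 and CIDEA, the adipocyte relatives of members, had at most 1 and 0 counts per library and could not be tested. BSCL2, the gene of seipin, which shapes nascent droplets, had at most 1 count per library. However, the last 500 bases of its main transcript are shared with a readthrough gene on the same strand, HNRNPUL2-BSCL2, which had 0 counts. How reads that match both genes were counted is not given in the sources used here. The level of BSCL2 can therefore not be read from these counts.

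Of 20 other genes listed as lipases or their regulators, 13 were tested and 1 was higher and 3 were lower. This is 30.8% against 34.2% of all genes, with a median log2 fold change of 0.22. LIPC, the secreted hepatic lipase, fell from 109 ± 27.5 to 56.0 ± 13.7 normalized counts (mean ± SD of 5 libraries, adjusted p = 0.000565, edgeR). PNPLA6, a lysophospholipase of the ER, fell from 46.1 ± 8.52 to 24.8 ± 7.84. CES2, a carboxylesterase, had a log2 fold change of -0.24 (adjusted p = 0.0317), a call that was lost under 6 of 19 settings. UBXN4, the 1 gene of this list called higher, rose by 0.43 on the log2 scale, but it is an ER protein of the degradation machinery and not a lipase. LIPE and MGLL, the lipases of the later steps of lipolysis, and G0S2, the best-known inhibitor of PNPLA2, were too low to be tested, with 0 to 4 counts of LIPE, 0 of MGLL and 0 to 1 of G0S2 per library. In a single library, a count of 0 allows an expected count of up to 3 at 95% confidence if counts follow a Poisson distribution. Over all 10 libraries together, MGLL had 0 counts, LIPE 4 and G0S2 1. ABHD6, another monoacylglycerol lipase, was measured with 18 to 40 counts per library and had a log2 fold change of 0.22 (adjusted p = 0.488).

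The genes of the last steps of triglyceride and sterol ester synthesis and of lipid export were lower in 8 of 13 cases and higher in 0 by edgeR's test, against 16.6% lower and 17.6% higher of all genes. At an unadjusted p under 0.05 there were 9 of 13, with MTTP the 1 on the higher side, against 43.5% of all genes, and DESeq2 called 0 higher too. The median log2 fold change was -0.34. DGAT2, which makes triglyceride for droplets and for secretion, had the largest change of the 13, with a log2 fold change of -2.04. SOAT1 and SOAT2, which esterify cholesterol, were lower by 0.39 and 0.52 on the log2 scale, calls that were lost under 4 and 1 of 19 settings, as was APOB, the structural protein of secreted lipoproteins, by 0.78. MTTP, which loads lipid onto APOB, had a log2 fold change of 0.30 (adjusted p = 0.114, edgeR). It passed edgeR's test as a higher gene with the replicate block (adjusted p = 0.0385) and after thinning to the smallest library. In DESeq2 with the block it did not pass (0.104). Without tunicamycin replicate 3, and without replicates 4 and 5 of both conditions, 5 of the 13 genes were called.

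Factors and targets of the PPAR and hypoxia pathways, which are known to control several droplet genes, moved both ways. Of 21 genes, 17 were tested, and 5 were higher and 5 lower in edgeR's test, which is 58.8% against 34.2% of all genes, with a median of 0.12. PPARG, the receptor that drives droplet genes in fat, rose from 14.9 ± 4.46 to 41.0 ± 9.13 normalized counts (mean ± SD of 5 libraries, adjusted p = 0.000235, edgeR). PPARD, with 7 to 33 counts per library, rose from 13.9 ± 5.29 to 30.3 ± 10.6 (adjusted p = 0.0121, edgeR). Its groups overlapped, and its call was lost after thinning to the smallest library. PPARA, the main PPAR of hepatocytes, had a log2 fold change of -0.10 (adjusted p = 0.663), while its partner RXRA fell by 0.78. The PPARA target CPT1A, of fatty acid oxidation, fell by 0.84. Among hypoxia genes, VEGFA and SLC2A1 rose by 0.80 and 0.99 on the log2 scale, whereas NDRG1 fell by 0.85. PDK1 rose by 0.46, a call that was lost under 9 of 19 settings. HIF1A fell by 0.36 (adjusted p = 0.0237, edgeR), with groups that overlapped and a call kept under 16 of 19 settings. CA9, a hypoxia-induced carbonic anhydrase with 1 to 23 counts per library, had the highest log2 fold change of the list, 1.53 (adjusted p = 0.0636), and passed with the replicate block in edgeR (adjusted p = 0.0208) and in DESeq2 with and without it (0.0346 and 0.0475). ANKRD37, with 2 to 16 counts, had 0.97 (adjusted p = 0.134), and BNIP3 and ADM, at 0.12 and -0.34, did not pass either, nor did HILPDA.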

How the data were processed

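RNA-seq libraries of HepG2 cells, 5 control and 5 tunicamycin, were made by the study's authors with a 3′ kit, and their reads were processed on hg19 by release 1.4.2 of nf-core's RNA-seq workflow, with Ensembl release 87. The authors deposited raw counts per gene, unfiltered and not normalized. The study's methods state default settings; which aligner, counting program and strand setting these are is not given in the sources used here. All 10 sample columns were matched by library name.

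Genes were filtered with filterByExpr at the minimums of the study's methods (count 2, total 10), TMM factors scaled the libraries, and the quasi-likelihood F-test of edgeR (version 4.0.16 in R 4.3.3) compared the conditions over 12733 genes, with no other term and Benjamini-Hochberg adjustment at 0.05. The study's own test, DESeq2 (version 1.42.0 here), was an alternative, as were other scalings and filters, the replicate block, thinning and leaving out libraries. The scripts were tested on simulated data. Standard errors are the absolute log2 fold change divided by the square root of F.

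The series text states that replicates are experiments of separate days, so that replicate numbers pair libraries; the deviations of paired libraries from their group means correlated with r of 0.329, 0.00259, 0.0907, 0.153 and 0.109 over 9711 genes. The members and lists were chosen with earlier results of these data known. Named genes are all members, genes of the other lists with an adjusted p under 0.05, PLIN1, CIDEA, LIPE, MGLL, G0S2, BSCL2 and HSPA5, although not every gene that met this rule is reported here. Others named in the lists (FITM2, ACSL3, HSD17B11, ABHD6, MTTP, PPARA, CA9, ANKRD37, BNIP3 and ADM), the overlapping genes and the markers APOA1, TTR, ALB, SERPINA1, AFP, PTPRC, LYZ and CD68 were chosen after their values were seen. Positions are from GENCODE on GRCh38, matched by Ensembl identifier, and promoter windows from RefSeq on GRCh38.p14, matched by symbol for 8 of 10 members.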

Additional observations from a re-analysis of the deposited data

Results flagged for a closer look

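In 3 of 24 groups of 5 values (the normalized counts of the 10 genes and 2 library measures, in each condition) a library lay far from the other 4, where chance gives about 1 in 20 groups, or 1.2. PLIN3 had 1635 normalized counts in control replicate 1, against 1165 to 1285 in the other control libraries. CIDEB had 136 normalized counts in the same library, against 205 to 230.3. HILPDA had 82.7 normalized counts in tunicamycin replicate 5, the smallest library, against 110.2 to 119.5. What sets these libraries apart was not tested.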

How the results depend on the processing

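Over all genes, 4353 were called, and the number stayed between 3212 and 4811 under every alternative run, but with library size as the only scaling 40.8% of called genes were higher, against 51.4% with TMM, and the median log2 fold change of all genes was -0.08. Of the 10 members, 4 were called with the replicate block in edgeR, 1 of them higher (PNPLA2, with PLIN3 the added lower gene), and 1 after thinning, which was lower; the block changed no other call of a member in edgeR, and in DESeq2 it called PLIN3 but not PNPLA2. With each library left out in turn, 2 to 3 members were called, 0 to 1 higher and 2 to 3 lower. Of the 13 genes of triglyceride synthesis and export, 8 were called, 5 in DESeq2 with the replicate block, 5 without replicates 4 and 5 (a setting added after the data were seen, as was leaving out mitochondrial genes), and 5 to 8 with each library left out in turn. PLIN4 reversed to -0.12 without replicates 4 and 5, and ranged from -0.15 to 0.37 with libraries left out, and was 1.10 after thinning. The direction of the other 9 members held under every alternative run. The causes of these shifts were not tested. PLIN4, PLIN5, CIDEC and ABHD5 had at most 43 counts in any library.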
